A study of Mus musculus with 12 samples.

Results

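The genes followed here are 10 markers of liver cell identity, measured in BNL CL.2 cells, an epithelial line grown from embryonic mouse liver. They are the plasma protein genes Alb, Afp, Ttr and Apoa1, the hepatocyte transcription factor genes Hnf4a and Cebpa, the simple epithelial keratin genes Krt8 and Krt18, and the bile duct markers Krt19 and Sox9. They are listed by symbol, with no threshold on a measured value. Each probe set (a group of short array probes that together read 1 transcript) that named exactly 1 of these symbols was taken, which gave 27 of the 34958 probe sets with a single symbol and 10 of 18194 genes. No probe set was left out for a low signal. Afp had 5 probe sets, Ttr, Apoa1 and Hnf4a 4 each, Krt8 and Sox9 3 each, and the other 4 genes 1 each. A gene's brightest probe set by its mean is called the main one, and a gene's values are those of its main probe set unless another is named.

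The study asked how transcripts of the liver cells respond to iron, to macrophages and to the combination, on 12 Affymetrix arrays after 24 h of culture. Every group was BNL CL.2 cells below a culture insert, with 3 arrays numbered 1 to 3 in the labels. In the group called alone the insert carried additional cells of the same line and no iron was given; the group FAC received ferric ammonium citrate, an iron salt, at 100 micromolar. RAW had RAW 264.7 cells, a mouse macrophage line, in the insert, and RAW_FAC had these macrophages together with the iron salt. The labels do not say what the insert of the FAC group held, nor whether equal numbers mean a shared day or passage.

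Hepatocytes and bile duct cells descend from a common fetal precursor, the hepatoblast. Alpha-fetoprotein (Afp) and albumin (Alb) are both secreted by hepatoblasts, and Afp is silenced after birth while Alb becomes the main plasma protein of the adult hepatocyte. The nuclear receptor Hnf4a and the leucine zipper protein Cebpa hold the hepatocyte programme in place, Krt8 pairs with Krt18 in the keratin filaments of hepatocytes, and Krt19 and the transcription factor Sox9 mark bile ducts and bipotent liver progenitors.

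Alb and Afp are neighbouring coding genes on mouse chromosome 5, and so are Krt8 and Krt18 on chromosome 15. RefSeq windows of the 250 bases before a transcript start were at hand for 7 of the 10 genes (build GRCm38.p6, plus strand for those printed). The windows of Alb and Afp are shown because Afp was the single member called in any comparison and Alb is its neighbour, and the 2 windows of Hnf4a because it was the hepatocyte factor with the higher share of variation tied to replicate number. Capitals mark matches on either strand to GTTAAT (an HNF1 half-site), CCAAT (a motif of the NF-Y and C/EBP factors), TATAAA (the TATA box) and GGGCGG (a GC box).
Alb: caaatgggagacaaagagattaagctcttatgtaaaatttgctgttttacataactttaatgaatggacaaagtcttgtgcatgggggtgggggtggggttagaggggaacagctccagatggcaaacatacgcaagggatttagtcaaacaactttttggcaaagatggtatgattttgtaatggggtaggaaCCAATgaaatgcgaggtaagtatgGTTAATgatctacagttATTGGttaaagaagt
Afp: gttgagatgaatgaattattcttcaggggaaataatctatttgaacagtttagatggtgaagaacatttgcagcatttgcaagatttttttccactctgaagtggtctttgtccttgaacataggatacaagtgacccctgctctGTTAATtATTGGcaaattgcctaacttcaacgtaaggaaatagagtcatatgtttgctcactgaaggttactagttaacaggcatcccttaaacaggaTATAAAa
Hnf4a, first start: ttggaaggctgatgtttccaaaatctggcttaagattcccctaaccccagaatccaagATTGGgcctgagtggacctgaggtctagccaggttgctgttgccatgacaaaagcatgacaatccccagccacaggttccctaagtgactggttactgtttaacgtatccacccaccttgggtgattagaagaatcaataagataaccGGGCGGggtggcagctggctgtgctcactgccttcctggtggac
Hnf4a, second start: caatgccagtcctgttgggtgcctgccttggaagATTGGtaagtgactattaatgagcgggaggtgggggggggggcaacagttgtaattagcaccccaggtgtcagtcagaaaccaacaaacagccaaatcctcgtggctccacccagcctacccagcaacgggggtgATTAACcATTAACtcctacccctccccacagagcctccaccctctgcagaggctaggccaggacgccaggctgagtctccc
In the Alb window, chr5:90460620-90460869, GTTAAT lay 32 to 27 bases before the start, with CCAAT at 56 to 52 and, on the other strand, at 15 to 11. In the Afp window, chr5:90490464-90490713, GTTAAT lay at 105 to 100, a reverse CCAAT at 98 to 94 and TATAAA at 7 to 2, so both neighbours carried GTTAAT and CCAAT. The first Hnf4a window, chr2:163506607-163506856, held a reverse CCAAT and a GC box, and the second, chr2:163546905-163547154, held GTTAAT in reverse at 81 to 76 and at 74 to 69 and a reverse CCAAT at 216 to 212. Of 32851 RefSeq windows of this length, 6.43% held GTTAAT, 33.85% CCAAT, 12.37% TATAAA and 32.74% GGGCGG. No motif overlapped another, and a match describes letters in these windows only.

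The deposited values are log2 signals between 2.42 and 14.6, and the median of an array lay at 5.63 to 5.68. Probe sets differ in their probes, so signals of different genes, including those of the reference below, compare only roughly. As a common reference, 44 probe sets of olfactory receptor genes had a median of 4.21, a 95th percentile of 5.23 and a highest mean of 6.04. They were chosen as genes not expected in liver cells, and whether each was absent from these cells was not tested.

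Among the plasma proteins, the signal of Alb did not rise above this reference. The 3 arrays of the group alone read 5.08, 5.26 and 5.24, those of FAC 5.28, 5.21 and 5.38, those of RAW 5.17, 5.09 and 5.26, and those of RAW_FAC 5.32, 5.15 and 5.02. The mean of 5.20 exceeded 93.2% of the olfactory receptor probe sets, below their 95th percentile, and all 4 groups overlapped. Group means ran from 5.17 ± 0.09 (SD, n = 3 arrays) in RAW to 5.29 ± 0.09 in FAC, so no order of the groups stood out from the spread between arrays.

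Afp, the fetal counterpart of Alb, stood above all olfactory receptor probe sets. Its main probe set read 8.30, 8.88 and 9.10 in alone and 8.61, 9.46 and 9.60 in FAC. It read 8.35, 8.90 and 9.32 in RAW and 8.52, 9.65 and 9.71 in RAW_FAC. The array numbered 1 was the lowest in each of the 4 groups, and the iron groups read higher than their counterparts at every number while the groups as wholes overlapped. Ordered by mean, alone (8.76 ± 0.41, SD, n = 3) was followed by RAW (8.86 ± 0.49), FAC (9.23 ± 0.54) and RAW_FAC (9.29 ± 0.67), and neighbours in this order differed by less than their SD. The probe sets 1436879_x_at, 1416646_at and 1436881_x_at had means of 7.69, 7.25 and 5.87, and 1436880_at, at 3.72, lay within the olfactory receptor range and above only 22.7% of those probe sets.

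Ttr, the thyroxine and retinol carrier transthyretin, read between 6.36 and 6.59 on its main probe set. The arrays read 6.55, 6.44 and 6.51 in alone, 6.52, 6.51 and 6.36 in FAC, 6.41, 6.57 and 6.59 in RAW, and 6.37, 6.51 and 6.54 in RAW_FAC. All 4 groups overlapped, and the other 3 Ttr probe sets had means of 2.75 to 3.95, within the olfactory receptor range. Apoa1, the main protein of high-density lipoprotein, read 6.16, 6.05 and 6.18 in alone, 6.20, 6.18 and 6.32 in FAC, 5.95, 6.28 and 6.55 in RAW, and 6.38, 6.17 and 6.41 in RAW_FAC. RAW spanned the widest interval for Apoa1 and enclosed all 9 arrays of the other groups. Its means were close on 3 probe sets (6.11 to 6.24), and the fourth, at 5.24, exceeded 93.2% of the olfactory receptor probe sets.

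Of the 2 transcription factors, Hnf4a gave a main signal of 10.45, with 10.75, 10.46 and 10.46 in alone and 10.54, 10.40 and 10.41 in FAC. The RAW arrays read 10.66, 10.36 and 10.30, and the RAW_FAC arrays 10.57, 10.30 and 10.22. Here the array numbered 1 was the highest in all 4 groups, the reverse of Afp, and the groups overlapped. The other Hnf4a probe sets had means of 8.89, 6.47 and 5.59, each above the 95th percentile of the reference. Cebpa read 7.77, 7.74 and 7.78 in alone, 7.73, 7.79 and 7.67 in FAC, 7.79, 7.76 and 7.58 in RAW, and 7.73, 7.72 and 7.96 in RAW_FAC. Its lowest and highest arrays were both numbered 3, and neither iron nor macrophages set the groups apart.

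Both simple epithelial keratins were near the top of the scale, where the highest value of any probe set was 14.6. Krt8, the type II keratin of the pair, read 14.29, 14.26 and 14.34 in alone, 14.27, 14.28 and 14.32 in FAC, 14.31, 14.20 and 14.28 in RAW, and 14.27, 14.22 and 14.34 in RAW_FAC. Its partner Krt18, of type I, read 14.18, 14.09 and 14.11 in alone, 14.09, 14.00 and 14.09 in FAC, 14.09, 14.04 and 14.06 in RAW, and 14.09, 13.99 and 14.02 in RAW_FAC. Krt8 spanned 0.14 and Krt18 0.18 over the 12 arrays, the narrowest ranges among the main probe sets here. Signals this close to the ceiling leave little room for an increase to be seen.

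The bile duct keratin Krt19 was also near the top of the scale, while Sox9 was not. Krt19 read 13.54, 13.28 and 13.49 in alone, 13.30, 13.37 and 13.42 in FAC, 13.34, 13.08 and 13.30 in RAW, and 13.27, 13.15 and 13.33 in RAW_FAC. Sox9 read 6.34, 6.13 and 6.16 in alone, 6.03, 5.98 and 6.16 in FAC, 6.32, 6.26 and 6.31 in RAW, and 6.16, 6.14 and 5.99 in RAW_FAC. The lowest Krt19 arrays were in the macrophage groups, and the 3 RAW arrays of Sox9 lay above all 3 RAW_FAC arrays. The other Sox9 probe sets had means of 4.80 and 3.97 and exceeded 75.0% and 45.5% of the olfactory receptor probe sets. On their main probe sets 9 of the 10 genes exceeded the 95th percentile of the reference, and Alb did not. Of all 34958 probe sets 36.7% lay below that percentile, so most probe sets exceeded it. The share among main probe sets, each the brightest of its gene, was not computed.

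**Figure D1:**
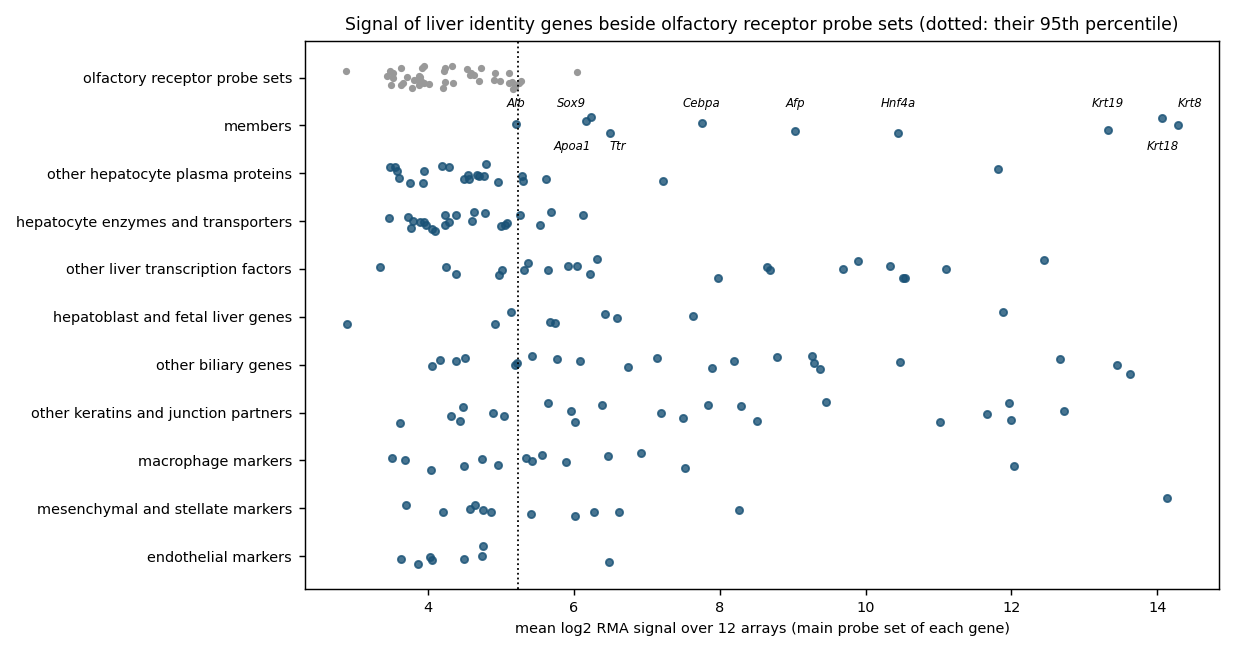
Mean log2 signal over the 12 arrays (horizontal axis) of the main probe set of each gene, by gene list (vertical axis), with 44 olfactory receptor probe sets in grey and their 95th percentile of 5.23 dotted; vertical scatter within a row is for legibility. Alb lies at 5.20, left of the dotted line, whereas Afp at 9.04, Hnf4a at 10.45 and the 3 keratins at 13.32 to 14.28 lie to its right.

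**Figure D2:**
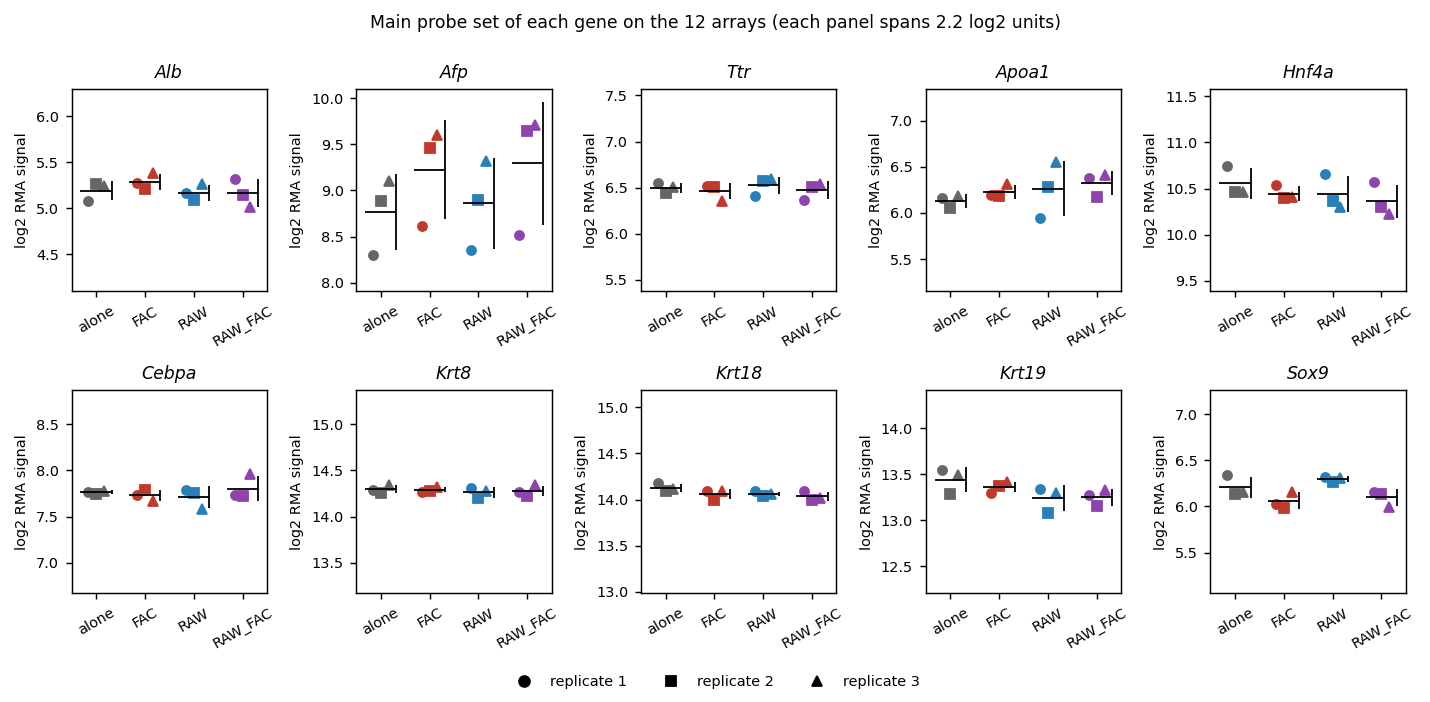
Log2 signal (vertical axes, each panel spanning the same width) of the main probe set of each gene by group, with a symbol per replicate number, the group mean as a horizontal line and 1 SD as a vertical line (n = 3). The number 1 arrays (circles) are the lowest for Afp and the highest for Hnf4a in each group.

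The changes were tested in limma over all 34958 probe sets, with 5 comparisons of 2 groups, an interaction, and an average effect each of iron and of macrophages. An average iron effect is the mean of the differences FAC minus alone and RAW_FAC minus RAW, and an average macrophage effect the mean of RAW minus alone and RAW_FAC minus FAC. In the limma fit with 1 mean per group, 0 of the 27 probe sets passed an adjusted p of 0.05 in any of the 8 comparisons. Over all probe sets the share called was 0% in 7 comparisons and 0.00286% (1 probe set) for the average macrophage effect, so the count of 0 among the members lies at the background. The smallest adjusted p among the 27, that of Sox9 for the average iron effect, was 0.741 in this limma fit. At an unadjusted p under 0.05 the members' counts were 1 for FAC against alone (2.95% of all probe sets), 1 for RAW against alone (3.72%), 2 for RAW_FAC against RAW (5.36%) and 1 for RAW_FAC against FAC (2.96%). They were 0 for RAW_FAC against alone (4.7%), 1 for the interaction (2.79%), 3 for the average iron effect (6%) and 1 for the average macrophage effect (3.88%).

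Arrays of the same number deviated together, so a second limma fit carried the number as an additive term, called the replicate block. With it, 2 of the 27 probe sets passed for the average iron effect, both of Afp, where 0.581% of all probe sets (203) were called and 0.452% (158) were called higher. In the other 7 comparisons 0 of the 27 passed with the block, where 0.0114% of probe sets were called for FAC against alone, 0% for RAW against alone, 0.0515% for RAW_FAC against RAW, 0% for RAW_FAC against FAC, 0.103% for RAW_FAC against alone, 0% for the interaction and 0.0172% for the average macrophage effect. At an unadjusted p under 0.05 the blocked limma fit gave 6 of the 27 for FAC against alone (6.15% of all probe sets), 2 for RAW against alone (6.1%), 6 for RAW_FAC against RAW (10.3%) and 2 for RAW_FAC against FAC (5.32%). It gave 7 for RAW_FAC against alone (9.53%), 2 for the interaction (4.31%), 7 for the average iron effect (11.2%) and 4 for the average macrophage effect (6.78%). The counts of 6 and 7 each came from 3 genes, because several probe sets of 1 gene were counted apart. Afp alone gave 4 of the 6 for FAC against alone. It also gave 4 of the 7 for RAW_FAC against alone and for the average iron effect. Afp and Apoa1 together gave 5 of the 6 for RAW_FAC against RAW.

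Afp rose with iron in the blocked fit. Its 6 same-number differences, each an iron array minus the array of that number without iron, were 0.31, 0.57 and 0.50 without macrophages and 0.18, 0.75 and 0.38 with them. All 6 were above 0, and the smallest came from number 1 on both sides of the design. The average iron effect was 0.45 ± 0.07 (SE with the block), a 1.36-fold difference, with an adjusted p of 0.0213 in limma. Without the block the SE was 0.24, the 95% interval ran from -0.08 to 0.98 and the adjusted p was 0.859 in limma, so the call rests on treating equal numbers as pairs. Residuals of equally numbered arrays were closer to each other when both arrays had iron or both lacked it (median r = 0.390) than when 1 had it (0.286). An additive term does not carry this, so the SE and adjusted p with the block may be too small.

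The other Afp probe sets were read for the same average iron effect. The second call was 1436879_x_at, with 0.41 and an adjusted p of 0.0245 in the blocked limma fit. The 2 further probe sets above the reference gave 0.39 (1416646_at, adjusted p 0.0632) and 0.23 (1436881_x_at, adjusted p 0.191) in that fit, and neither passed. Each of these 4 probe sets was higher in 6 of 6 pairs, a pattern shown by 3.61% of all probe sets. The fifth, 1436880_at, whose signal lay within the olfactory receptor range, gave -0.06 and was higher in 2 of 6 pairs.

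The call on Afp depended on single arrays. In the blocked limma fit the change stayed between 0.39 and 0.51 when each array was left out in turn, and the main probe set passed in 4 of 12 such fits, those without alone 1, FAC 3, RAW 3 or RAW_FAC 1. It missed with an adjusted p of 0.0877 without alone 2, 0.0538 without alone 3, 0.0717 without FAC 1 and 0.0872 without FAC 2 in limma. It also missed with 0.0516 without RAW 1, 0.0625 without RAW 2, 0.0514 without RAW_FAC 2 and 0.0580 without RAW_FAC 3 in limma. Leaving out 1 number from all groups gave 0.55 without number 1, 0.34 without number 2 and 0.45 without number 3, with adjusted p of 0.101, 0.397 and 0.152 in limma.

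No macrophage difference of Afp passed in either fit. Taken singly with the block, FAC against alone gave 0.46 and RAW_FAC against RAW 0.44, with adjusted p of 0.329 and 0.212 in limma. The interaction, the iron difference with macrophages minus that without, was -0.03 with a 95% interval of -0.34 to 0.28 in the blocked fit. RAW_FAC against alone gave 0.53, with an adjusted p of 0.0850 in the blocked limma fit. The average macrophage effect was 0.08, with an interval of -0.07 to 0.24 and 5 of 6 pairs higher. The dim probe set 1436880_at gave 0.17, also with 5 of 6 pairs higher. Its unadjusted p was 0.0172 and its adjusted p 0.639 in the blocked limma fit.

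**Figure D3:**
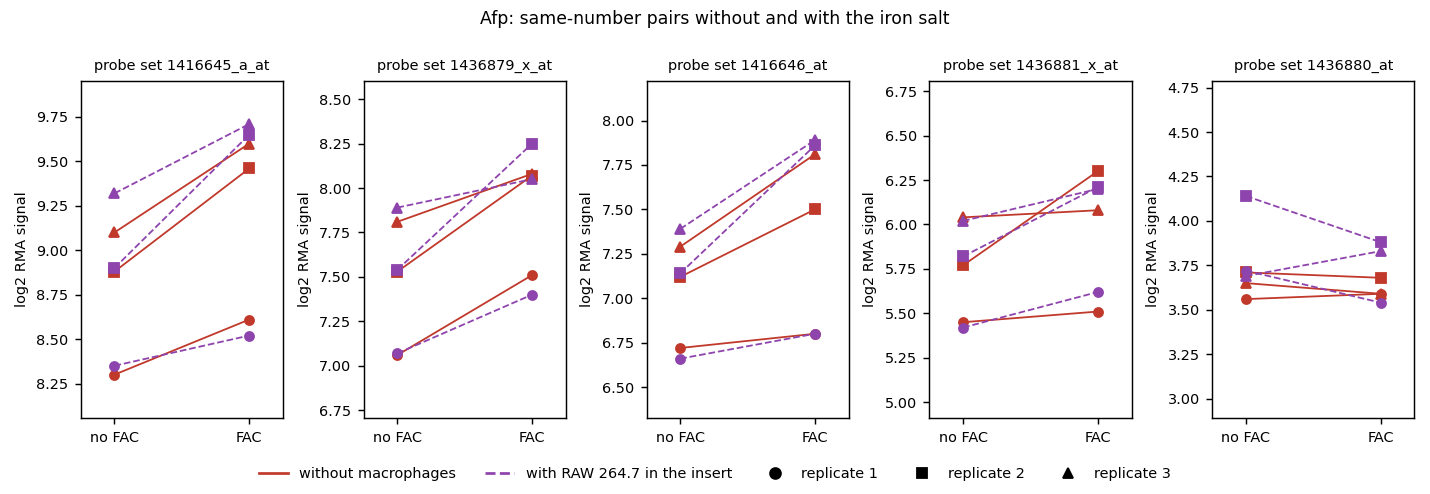
Log2 signal (vertical axes, equal spans) of the 5 Afp probe sets without and with the iron salt (horizontal axis); each line joins 2 arrays of the same number, solid red without and dashed purple with macrophages. All 6 lines rise in the first 4 panels, by 0.18 to 0.75 for the main probe set, and 2 of 6 rise for 1436880_at.

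Alb, next to Afp on the chromosome, had an average iron effect of 0.04 ± 0.06 (SE, no block), with a 95% interval of -0.09 to 0.18 in limma. It was higher in 4 of 6 pairs. Leaving out RAW_FAC 3 turned its difference of -0.01 between RAW_FAC and RAW into 0.10 in the blocked fit, and neither value passed. Ttr gave an average iron effect of -0.04 with 5 of 6 pairs lower, and its interval of -0.16 to 0.08 includes 0. Its other 3 probe sets, all within the olfactory receptor range, did not share a sign and gave 0.14, 0.06 and -0.04. Of the plasma protein genes other than Afp, none passed in either limma fit, although single probe sets of Ttr and Apoa1 separated whole groups, as given below.

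Apoa1 gave 0.08 for iron and 0.11 for macrophages on its main probe set, with SE of 0.09 each without the block. Its 4 probe sets did not share a sign for macrophages: the RAW against alone difference was 0.13 on the main one and -0.07 on the mean of all 4. The dimmest, 1438840_x_at, read 5.37, 5.18 and 5.21 in alone, 5.05, 5.35 and 5.15 in FAC, 5.14, 5.16 and 5.10 in RAW, and 5.36, 5.43 and 5.33 in RAW_FAC. Its RAW_FAC arrays all lay above its RAW arrays, by 0.24 ± 0.08 on average, and its interaction was 0.31 ± 0.12, with unadjusted p of 0.0126 and 0.0200 and adjusted p of 0.894 and 1.00 in limma. The other Apoa1 probe sets did not separate RAW_FAC from RAW.

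Hnf4a was lower with iron in 6 of 6 pairs, by 0.05 to 0.21, and 3.7% of all probe sets were lower in 6 of 6. Its average iron effect was -0.09 ± 0.04 (SE with the block), with an adjusted p of 0.443 in limma, so the difference did not pass. Its other 3 probe sets gave -0.07, -0.09 and -0.07 and were lower in 5, 5 and 3 of 6 pairs. With macrophages the main probe set gave -0.10 ± 0.04, lower in 5 of 6 pairs, and 1427000_at gave -0.19 ± 0.06, lower in 6 of 6 (2.78% of all probe sets), with adjusted p of 0.708 and 0.600 in the blocked limma fit. Cebpa gave 0.03 for iron and 0.01 for macrophages, with 95% intervals of -0.10 to 0.16 and -0.12 to 0.13 in the fit without the block. The sign of its RAW_FAC against RAW difference, 0.09, turned to -0.01 in the blocked fit without RAW_FAC 3, and neither value passed.

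The keratins differed little, on a scale with little room above them. Krt8 had an average iron effect of 0.00, with a 95% interval of -0.09 to 0.10, and an average macrophage effect of -0.02, with an interval of -0.12 to 0.07 (no block). Krt18 had -0.05 and -0.04 and was lower with macrophages in 6 of 6 pairs, by 0.00 to 0.09, as was the Krt8 probe set 1435989_x_at, by 0.03 to 0.10. Of all probe sets 2.78% were lower in 6 of 6. The 3 Krt18 arrays of RAW lay just below those of alone, one of 3 such separations among the 27 probe sets, where 8.74% of all probe sets did not overlap. None of these differences passed in limma, with or without the block.

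Krt19 was lower with macrophages in 6 of 6 pairs, by 0.03 to 0.22, as 2.78% of all probe sets were. Among the 27 member probe sets, 4 were lower in 6 of 6, 1 each of Hnf4a, Krt8, Krt18 and Krt19. The count higher in 6 of 6 was 0 of the 27 (2.69% of all probe sets). Whether 4 of 27 differs from the share of all probe sets was not tested. The 3 differences between RAW and alone were -0.20, -0.21 and -0.19, and those between RAW_FAC and FAC were -0.03, -0.22 and -0.09. The average macrophage effect was -0.15 ± 0.06 (SE, no block), with an unadjusted p of 0.0319 and an adjusted p of 1.00 in limma, and with the block the adjusted p was 0.578, so Krt19 did not pass. Its average iron effect was -0.03, with 3 of 6 pairs lower.

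Sox9 had the lowest unadjusted p of the main probe sets for iron without the block, while with it Afp had the lowest. The 3 differences between FAC and alone were -0.30, -0.15 and 0.00, and those between RAW_FAC and RAW were -0.16, -0.13 and -0.31, so 5 of 6 pairs were lower. The average iron effect was -0.17 ± 0.06 (SE, no block), a 1.13-fold difference, with an unadjusted p of 0.00806 and adjusted p of 0.741 without and 0.222 with the block in limma. The second probe set, 1433889_at, gave -0.29 ± 0.10, but its mean signal exceeded only 75.0% of the olfactory receptor probe sets, and the third gave -0.11. For 1433889_at the 3 FAC arrays, at 4.60, 4.56 and 4.59, lay below the 3 alone arrays, at 5.18, 4.91 and 4.87, the single separation among the 27 in that comparison (7.78% of all probe sets). No Sox9 value passed in either limma fit.

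The remaining separations of whole groups were few. Between RAW and alone, Apoa1 and Ttr each had 1 separate probe set beside that of Krt18, and between RAW_FAC and RAW so did Apoa1, Sox9 and Ttr (9.67% of all probe sets). Between RAW_FAC and FAC, 1 Krt8 probe set was separate (6.65%), and between RAW_FAC and alone 0 of the 27 were (8.97%). Each of these counts of separate groups lies near the share of all probe sets. The median average iron effect over the 10 genes was -0.02, against 0.00 over all 18194 genes, with 5 above 0 and 5 below. The median average macrophage effect was -0.01, against 0.01 over all genes, again with 5 above and 5 below.

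**Figure D4:**
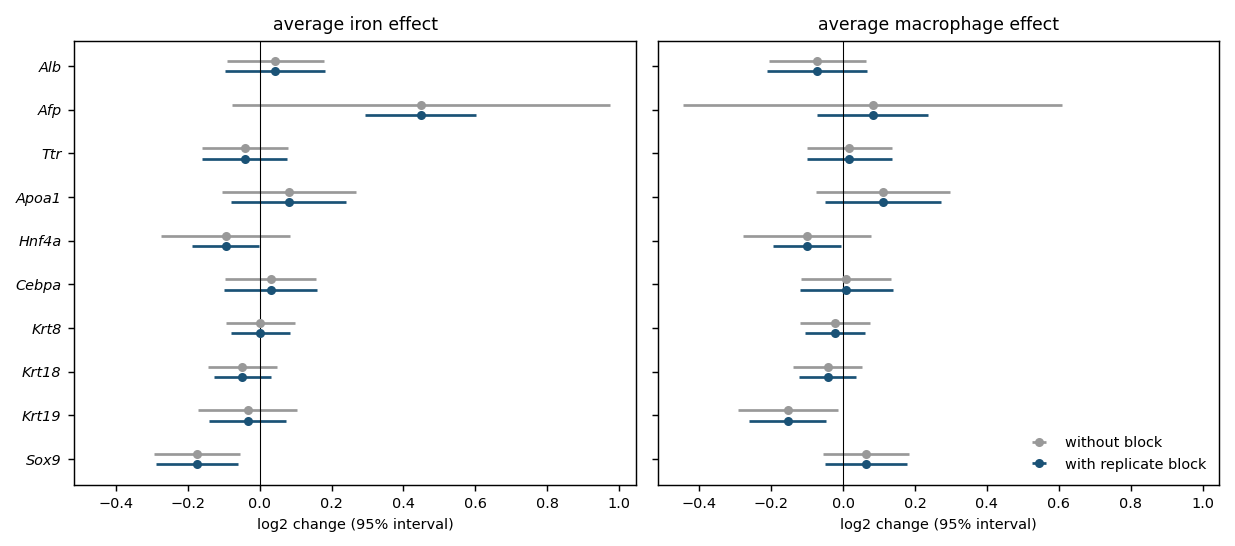
Average iron effect (left) and average macrophage effect (right) on the main probe set of each gene as log2 change (horizontal axis), with 95% intervals from the limma fit without (grey) and with (blue) the replicate block. The Afp interval for iron runs from -0.08 to 0.98 without and from 0.29 to 0.60 with the block; the intervals are not adjusted for the number of probe sets.

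The 10 genes also differed in what their variation went with. For Afp, 74.4% of the sum of squares over the 12 arrays went with the replicate number and 20.8% with iron, and its means by number were 8.45, 9.23 and 9.43. For Hnf4a 71.1% went with the number, with means of 10.63, 10.38 and 10.35, so the 2 genes ran in opposite order over the numbers. Over all probe sets the median shares were 26.4% for the number, 5.43% for iron and 3.92% for macrophages. Krt8 (63.6%), Krt18 (44.7%), Krt19 (35.8%) and Apoa1 (34.4%) also lay above the median for the number. Alb, Ttr, Cebpa and Sox9 lay below it. Sox9 had 54.6% with iron and Krt19 39.2% with macrophages, while 72.9% for Alb, 83.3% for Ttr and 82.9% for Cebpa was residual.

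**Figure D5:**
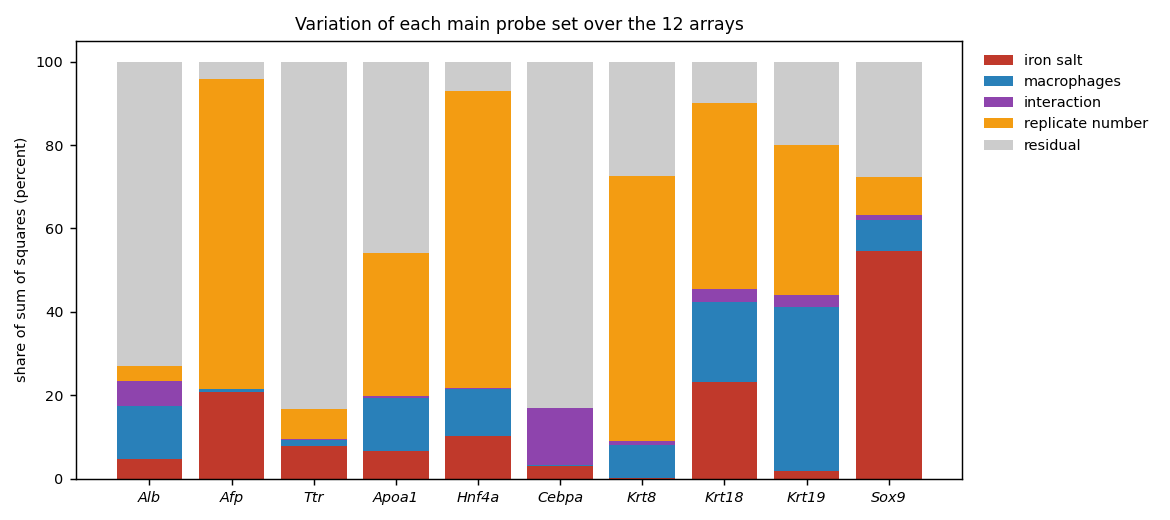
Share of each main probe set's sum of squares over the 12 arrays (vertical axis, percent) that went with iron, macrophages, their interaction, the replicate number and the residual. The number takes 74.4% for Afp, 71.1% for Hnf4a and 63.6% for Krt8, iron takes 54.6% for Sox9, and macrophages take 39.2% for Krt19.

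Ratios of 3' to 5' control probe sets, a sign of RNA quality, were compared on the same arrays. The actin difference was 0.32 to 0.42, with means of 0.38 without and 0.38 with iron and of 0.39, 0.35 and 0.40 for numbers 1 to 3. The Gapdh difference was -0.05 to 0.11, with means of 0.01 without and 0.02 with iron and of -0.00, -0.04 and 0.09 by number. Of 14 macrophage markers, 8 exceeded the 95th percentile of the reference, and 36.7% of all probe sets lay below it. The mean signal of all 14 markers was 5.72 to 5.74 in alone, 5.72 to 5.78 in FAC, 5.72 to 5.82 in RAW and 5.75 to 5.80 in RAW_FAC. The 8 were Cd14 (12.04), Cd53 (7.53), Laptm5 (6.91), Csf1r (6.46), Spi1 (5.89), Cd68 (5.56), Fcer1g (5.42) and Lyz2 (5.34). The other 6 were Adgre1 (4.96), Coro1a (4.74), Tyrobp (4.49), Aif1 (4.04), Itgam (3.69) and Ptprc (3.50). The part of RNA quality or of macrophage RNA in the differences above was not tested.

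Most of the wider plasma protein and enzyme genes of hepatocytes did not exceed the reference either. Of 25 listed plasma protein genes 22 were measured and 5 exceeded the 95th percentile of the reference, among them Apob, the protein of very low-density lipoprotein (11.82), and the haem-binding protein gene Hpx (7.22). The fibrinogen chains Fga, Fgb and Fgg read 3.54, 4.29 and 3.60. Of 25 hepatocyte enzyme and transporter genes 23 were measured and 4 exceeded it, while the urea cycle gene Cps1 (4.24), the bile acid synthesis gene Cyp7a1 (4.23) and the cytochrome gene Cyp3a11 (3.47) did not. Of 22 other liver transcription factors measured, 17 exceeded it. Bright ones among them were Foxa2 (11.10), Foxa1 (9.90), Hhex (10.33), Gata6 (9.69) and Cebpb (12.45). The factors below the percentile and the enzyme and transporter genes above it are not named here. Beside these counts, 36.7% of all probe sets lay below that percentile. The counts use the brightest probe set of each gene, for which that share was not computed.

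Hpx was the single gene of these lists called in any comparison, and only with the block. It read 7.97, 6.45 and 6.70 in alone, 8.13, 6.71 and 6.77 in FAC, 8.03, 6.45 and 6.86 in RAW, and 8.29, 7.04 and 7.24 in RAW_FAC. Number 1 was the highest in each group, and the 6 iron pairs were all higher, by 0.07 to 0.59, as for 3.61% of all probe sets. The average iron effect was 0.29 ± 0.05 (SE with the block), with an adjusted p of 0.0478 in limma, against 0.944 without the block. Left out singly in the blocked limma fit, 10 of the 12 arrays ended the call, with adjusted p up to 0.179 (without FAC 2), and it held without FAC 3 (0.0431) and RAW_FAC 1 (0.0424). The call was also lost with the block and array medians centred (0.0567), and with number 1, 2 or 3 left out of all groups (0.222, 0.538 and 0.141 in limma). Its average macrophage effect was 0.20, higher in 6 of 6 pairs (2.69% of all probe sets), and did not pass.

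Of the other lists, 0 genes were called in limma in any comparison, with or without the block. Counts above the 95th percentile of the reference were 6 of 9 for hepatoblast and fetal genes, 15 of 21 for biliary genes and 15 of 21 for other keratins and junction proteins. Of all probe sets 36.7% lay below that percentile. The counts use the brightest probe set of each gene, for which that share was not computed. Whether these lists differ from other genes in this was not tested. Vim (14.14), Cd24a (13.62), Tm4sf4 (13.45), Cdh1 (12.72), Sox4 (12.66) and Hmga2 (11.89) were the bright ones among them and the mesenchymal list. For the average iron effect the 22 plasma protein genes had a median of 0.02 with 15 above 0, the 23 enzyme genes 0.01 with 14, the 22 transcription factors 0.03 with 12 and the 21 biliary genes 0.01 with 12, against 48.9% of all genes above 0. The other lists had -0.02 with 2 of 9 hepatoblast and fetal genes above 0, -0.04 with 6 of 21 keratins and junction proteins, -0.07 with 1 of 6 YAP target genes, 0.03 with 8 of 14 macrophage markers, -0.07 with 2 of 12 mesenchymal genes and -0.05 with 2 of 8 endothelial genes. For the average macrophage effect the medians were 0.02, -0.00, 0.01 and -0.04, with 13, 9, 12 and 5 genes above 0, against 53.8% of all genes. In the order of the other 6 lists the macrophage medians were 0.02, -0.01, 0.02, 0.04, 0.04 and -0.02, with 5, 9, 4, 9, 8 and 3 genes above 0.

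For each list without a called gene, the member with the largest average effect is given, and none of these passed in limma. For iron they were Cyp27a1 (0.15), Atf5 (0.19), the growth-associated chromatin gene Hmga2 (-0.31, lower in 6 of 6 pairs), the polycystic disease gene Pkhd1 (-0.39, lower in 6 of 6), Krt20 (-0.32, lower in 6 of 6), Ankrd1 (-0.15), Tyrobp (-0.13), Fn1 (-0.17) and Tek (-0.13). Of all probe sets 3.7% were lower with iron in 6 of 6 pairs. For macrophages they were Asgr2 (-0.16), Hhex (-0.22, lower in 6 of 6, as 2.78% of all probe sets were), Hmga2 (0.18, higher in 6 of 6, as 2.69% of all probe sets were), the Notch target Hey1 (-0.27), Evpl (0.15), Axl (0.09), Cd53 (0.21), Col1a1 (-0.21) and Vwf (-0.08).

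Genes whose main probe set followed that of a member most closely over the 12 arrays were found for Afp, Apoa1 and Hnf4a, the members above the reference with a range of at least 0.5. For Afp they were Pck2 (Pearson r = 0.98), Sec24c (0.98) and Nucb2 (0.98), and Pck2 averaged 9.86 for number 1 and 10.60 for number 3. For Hnf4a they were H2az2 (0.96), Nanos1 (0.96) and Thnsl1 (0.94), and for Apoa1 Mdga1 (0.89), Tnfrsf25 (0.88) and Gbp2 (0.86). The means of these last 3, at 5.20, 5.02 and 3.62, lay below the 95th percentile of the olfactory receptor reference. The 12 points share 4 groups and 3 numbers, so these values describe the arrays and carry no p.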

How the data were processed

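The authors deposited log2 signals of 45101 probe sets that they computed with RMA in affy, per the submitters' processing notes, which name no version. RMA corrects background, equalises distributions over arrays and combines probes, so shifts common to all probe sets are removed. Probe sets were named through the platform annotation: 34958 had 1 symbol, 932 several and 9211 none. Only the first kind was used. No further scaling or filter was applied.

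Group means of all 12 arrays were fitted in limma 3.58.1 (R 4.3.3), with moderated variances (prior degrees of freedom 5.13; the median residual SD was 0.115) and two-sided p values, Benjamini-Hochberg adjusted over all 34958 probe sets. Numbers come from the sample titles. Once each group's mean was subtracted, 18 pairs of arrays with equal numbers correlated at 0.25 to 0.49 and 36 pairs with unequal numbers at -0.32 to -0.00, so the number was also fitted as an additive block (prior degrees of freedom 4.91; median residual SD 0.0971). The labels do not say whether replicates came from separate cultures; a p value then reflects only how far these samples scatter, which may be technical. Fold differences were computed from the log2 changes.

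The members, the gene lists (168 of 181 entries measured) and the rule for named genes were chosen with earlier results of these data known. Every member probe set is given. From each list came the genes called and otherwise the largest average effects, and from the likeness search the 3 highest correlations. Bright genes, low hepatocyte genes and single pairs were picked for the text after their values were seen.

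Alternatives were quantile normalization, median centring, 1 probe set or the mean of probe sets per gene, low probe sets left out, trended robust moderation, array weights, the compared groups alone, the block, and each array left out. Combinations with the block were added after seeing the data. The fits were tested on simulated data. Python 3.11.15, numpy 2.4.6, pandas 2.3.3 and matplotlib 3.10.9 made tables and plots. Promoter windows are RefSeq's, build GRCm38.p6; the build of the array annotation was not stated. The number of arrays limits the precision.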

Additional observations from a re-analysis of the deposited data

How the results depend on the processing

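Without the replicate block, 157 of 157 alternative counts of called probe sets stayed at 0 of the members, over scaling, probe set choice, low filter, moderation, array weights, compared groups alone and each array left out; 0 member changes passed, and the 140 level values moved by less than 1 SD. The median change of all probe sets shifted by at most 0.03. With the block, the average iron effect went from 0 to 2 called probe sets, both of Afp. With the block and each array left out it was 0 to 3. The block with quantile normalization gave 2, with medians centred 2, with 1 probe set per gene 1, with the mean of probe sets 1, with low probe sets left out 3, with trended robust moderation 3, with array weights 3, and without number 3 it gave 1; every call was of Afp. RAW_FAC against alone gave 1 with the block and low probe sets left out, 2 with the block and trended robust moderation, and 0 to 1 with the block and each array left out (1 without RAW_FAC 1). RAW_FAC against RAW gave 1 with the block and trended robust moderation. The block changed no other call among the members. Of 1554 single changes without the block, 3 moved by more than the spread, for Ttr and Apoa1 with the mean of probe sets; with the block 25 of 1824 did. Depth is not a quantity of arrays: Alb, 1 Afp probe set, 3 Ttr probe sets and 2 Sox9 probe sets lay below the 95th percentile of the olfactory receptor reference (5.23), 1 Apoa1 probe set lay beside it (5.24), and Krt8 and Krt18 near the highest value, which limits what can be seen in them.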
